A study of Rattus norvegicus with 6 samples.

Results

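Matrix metalloproteinases cut the collagen and other proteins of the extracellular matrix, and tissue inhibitors of metalloproteinases bind and block them. In a healing bowel join the collagen laid down across the wound holds the ends together, while the same enzymes clear and reshape it. The genes described here are 3 proteases and 1 inhibitor: Mmp2 (gelatinase A), Mmp9 (gelatinase B), Mmp14 (the membrane-bound protease that activates the Mmp2 proenzyme) and Timp1 (a secreted inhibitor that also binds the Mmp9 proenzyme). These proteases are made as inactive proenzymes, so a transcript level is not a measure of enzyme activity. They were chosen as 4 identifiers among the 21417 rat gene identifiers of the deposited table, ENSRNOG00000016695 for Mmp2, ENSRNOG00000017539 for Mmp9, ENSRNOG00000010947 for Mmp14 and ENSRNOG00000010208 for Timp1, and all 4 were present. The names came with the choice of identifiers. The deposited table pairs no identifier with a symbol, so the names were not checked against it, and other metalloproteinases, other inhibitors and cell type markers are not analysed here.

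The 6 RNA-seq libraries were made from the colonic join of male Sprague-Dawley rats (an outbred strain) weighing 200 to 230 g, collected 2 weeks after end-to-end anastomosis. Magnetic compression (MCA), which holds the cut ends between magnets until the bowel wall grows together, was used in 3 of them, and conventional suture, the control, in the other 3. The labels describe biological replicates within each group and name no genetic change or age, and no unoperated bowel enters the comparison. The study compared the 2 groups to see how gene expression at the join differed between the methods.

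Values are FPKM, fragments scaled to gene length and library total, so they can be compared between genes as far as the lengths used are right. The library totals recovered from the deposited values ran from 14867454 to 15791079 fragments. MCA replicate 2 stood apart: its mean Spearman correlation with the other 5 libraries, across the 13591 genes that averaged 1 FPKM or more, was 0.850, against 0.880 to 0.926 for the rest. The log2 differences of Mmp9 and Mmp14, the ratios to Timp1, the protease sum and the correlations are given with and without it. All 4 genes were among those 13591, and each would also have met this minimum on the suture libraries alone. Tissue was sequenced in bulk, so fewer cells of a type and less RNA per cell cannot be told apart.

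All 4 genes had higher mean levels with MCA than with suture, by very different amounts, where 46.6% of all genes tested had a log2 fold above 0. Mmp9 averaged 12.4 times its suture level, Mmp14 1.99 times, Mmp2 1.46 times and Timp1 1.24 times. The groups did not overlap in 2 of the 4 genes, Mmp9 and Mmp14, and both were higher with MCA, as were 6.18% of all genes tested. The same 2 genes had an unadjusted p under 0.05, which 3.5% of all genes reached with a higher level in MCA. A mean at least 2-fold higher with MCA was found for 1 of the 4, Mmp9, and for 4.69% of all genes. None of the 4 passed an adjusted p of 0.05, and neither did any other gene (0% of those tested, limma with Benjamini-Hochberg adjustment, smallest adjusted p of any gene 0.0632), where 667 genes (4.91%) had an unadjusted p under 0.05. Run by limma-voom on the recovered fragments, the comparison also gave 0 genes, and with array quality weights it gave 35. The median log2 fold was 0.72 over the 4 genes and -0.02 over all genes tested.

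**Figure D1:**
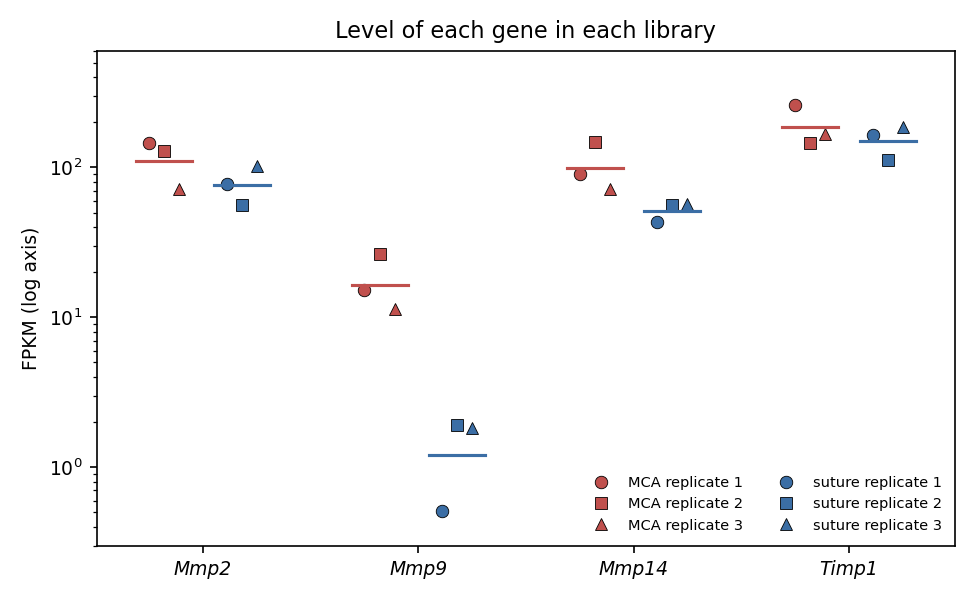
FPKM of each gene (log axis) in each library, with MCA in red and suture in blue, a marker shape for each replicate number and a line at each group's geometric mean. The 3 MCA libraries lie between 11.4 and 26.3 FPKM for Mmp9 and the 3 suture libraries between 0.510 and 1.91, while the groups overlap for Mmp2 and Timp1.

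Mmp9, the gelatinase that neutrophils and macrophages are known to carry, showed the widest gap. Its level was 15.2, 26.3 and 11.4 FPKM in the MCA libraries (here and below in the order of replicates 1, 2 and 3) and 0.510, 1.91 and 1.83 FPKM in the suture libraries. Every MCA library lay above every suture library, and the lowest MCA value was 5.95 times the highest suture value. The group mean was 17.6 ± 7.78 FPKM (SD, n = 3) for MCA against 1.42 ± 0.786 FPKM (SD, n = 3) with suture. The recovered fragments behind these values numbered 755, 1233 and 558 with MCA and 25, 94 and 87 with suture. Suture replicate 1 was thus the least precise, with an exact 95% Poisson interval of 0.330 to 0.753 FPKM, which covers counting error only and still lies below the interval of every other library. The nearest of these, suture replicate 3, had an interval of 1.47 to 2.26 FPKM.

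On the log2(FPKM + 1) scale the difference for Mmp9, understated by the added 1 where levels are low, was 2.93 (standard error 0.389), with a 95% interval of 2.01 to 3.85 (limma). The unadjusted p was 0.000137, which ranked Mmp9 at 16 of 13591 genes by p. By log2 fold, counted from the largest increase with MCA, it ranked at 13. The limma adjusted p was 0.101, above the threshold. An exact permutation test on the 3 against 3 libraries gave p = 0.1, the smallest it can give. Without MCA replicate 2, the library with the highest Mmp9, the difference was 2.61 (limma adjusted p = 0.129). With libraries weighted by an estimated quality, Mmp9 passed the threshold at a limma adjusted p of 0.0190 (0.0190 to 0.415 over the alternatives run), with weights of 0.290 for MCA replicate 2 and 4.31 for MCA replicate 1. Markers of the leukocytes that carry Mmp9 were not analysed here, and whether their number differed between the groups was not tested.

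Mmp2, the gelatinase made mainly by fibroblasts and other stromal cells, was an abundant transcript in both groups. It stood at 146, 129 and 71.5 FPKM in the MCA libraries and at 77.9, 56.1 and 103 FPKM in the suture libraries. The groups overlapped, because MCA replicate 3 lay below suture replicates 1 and 3. The mean was 115 ± 39.0 FPKM (SD, n = 3) for MCA against 79.0 ± 23.5 FPKM (SD, n = 3) for suture. The log2 difference of 0.52 had a 95% interval of -0.36 to 1.40 and a limma adjusted p of 1.00, so that neither no difference nor a 2-fold increase was excluded. The value without MCA replicate 3 was 0.83, and without suture replicate 2 it was 0.30.

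Mmp14, which sits on the cell surface, cleaves fibrillar collagen and activates the Mmp2 proenzyme, was also separated by group, but by a narrow gap. Its level was 91.1, 147 and 71.3 FPKM in the MCA libraries and 43.2, 56.1 and 56.7 FPKM in the suture libraries. The lowest MCA library was 1.26 times the highest suture library. The suture libraries lay close together, with a coefficient of variation of 14.7%, while the MCA libraries varied by 38.3%. The means were 103 ± 39.5 FPKM (SD, n = 3) and 52.0 ± 7.64 FPKM (SD, n = 3). The log2 difference was 0.92 (standard error 0.326), with a 95% interval of 0.15 to 1.69, an unadjusted p of 0.0256 and a limma adjusted p of 0.833. It ranked at 418 of 13591 genes by p. Without MCA replicate 2 the difference was 0.63 (limma unadjusted p = 0.0493). Leaving out MCA replicate 1, suture replicate 1 or suture replicate 3 raised the limma unadjusted p to 0.0511, 0.0845 and 0.0502.

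Timp1, the inhibitor, had the highest mean of the 4 genes and the smallest difference between groups. Its level was 262, 146 and 167 FPKM in the MCA libraries and 164, 112 and 186 FPKM in the suture libraries. MCA replicate 1 was the highest library and suture replicate 2 the lowest, and the other 4 were interleaved. The mean was 192 ± 61.5 FPKM (SD, n = 3) for MCA against 154 ± 37.8 FPKM (SD, n = 3) with suture. The log2 difference of 0.30 had a 95% interval of -0.52 to 1.11 and a limma adjusted p of 1.00. It was 0.05 without MCA replicate 1 and 0.09 without suture replicate 2.

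**Figure D2:**
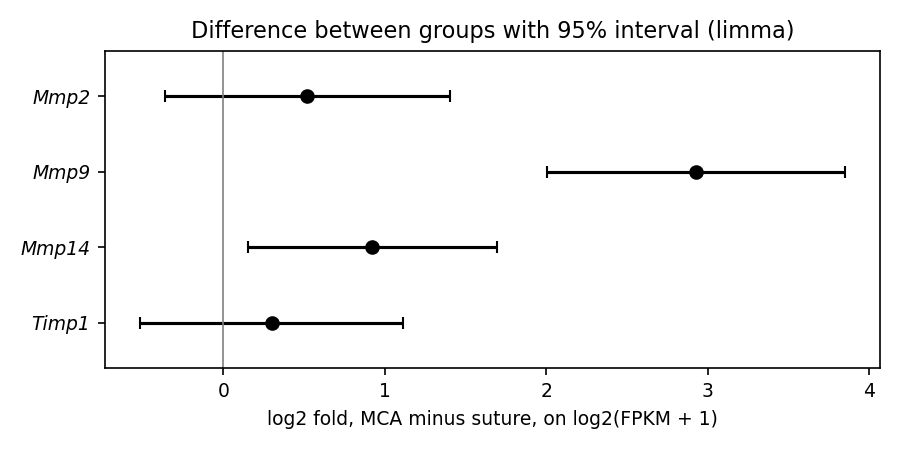
Difference between MCA and suture for each gene on the log2(FPKM + 1) scale, with points at the limma estimate and bars for its 95% interval, and a grey line at no difference. The intervals of Mmp9 (2.01 to 3.85) and Mmp14 (0.15 to 1.69) lie above 0, and those of Mmp2 and Timp1 include it.

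The order of the 4 levels in FPKM was Timp1, Mmp2, Mmp14 and Mmp9 by mean over the 6 libraries, with 173, 97.2, 77.6 and 9.52 FPKM. Only 2.74% of the genes tested had a higher mean than Timp1, 5.14% than Mmp2 and 6.76% than Mmp14, whereas 49.7% had a higher mean than Mmp9. Timp1 exceeded Mmp2 in 6 of 6 libraries, by 1.13 to 2.34 times (exact sign-flip test within libraries, two-sided p = 0.0312, 0.0469 after adjustment over the 3 neighbouring pairs). Mmp14 exceeded Mmp9 in 6 of 6, by 5.60 to 84.6 times, with the same exact p of 0.0312, the smallest this test can give. Mmp2 exceeded Mmp14 in only 4 of 6 libraries, and these neighbours did not differ beyond their spread (exact sign-flip p = 0.188). In MCA replicate 2 the order changed, and Mmp14 stood above Timp1. The neighbours were set by these same values, and the test measures only how steady an order was over the libraries. It cannot show which transcript was truly more abundant, because an error in a gene's length would recur in all 6. Timp1, at a recovered length of 740 bases against 3071 for Mmp2, had fewer recovered fragments than Mmp2 in each library.

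Of the 4 genes, Mmp9 differed most between groups in its place among the tested genes of a library. Genes with a higher level than Mmp9 made up 38.2%, 18.4% and 43.3% of those tested in MCA replicates 1, 2 and 3. They made up 97.9%, 86.8% and 89.4% in suture replicates 1, 2 and 3. Mmp9 was therefore in the upper part of the tested genes in each MCA library and among the lowest of the tested genes in each suture library. The tested genes leave out those averaging under 1 FPKM, so a low place here is not a low place among all genes of the library. Timp1, by contrast, had between 1.98% and 3.75% of tested genes above it in all 6 libraries.

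The ratio of each protease to Timp1 compares their transcript levels within a library, and the library total cancels out of it. It does not measure how well Timp1 blocks a given protease, Mmp14 included, and no inhibitor other than Timp1 enters it. The Mmp9 to Timp1 ratio was 0.0580, 0.180 and 0.0679 in the MCA libraries and 0.00310, 0.0170 and 0.00985 in the suture libraries. All MCA values lay above all suture values, and the lowest was 3.41 times the highest suture value. In other terms there were 17.2, 5.54 and 14.7 units of Timp1 FPKM for each unit of Mmp9 FPKM with MCA and 322, 58.8 and 101 with suture. The geometric mean of the ratio was 11.1 times higher with MCA, a log2 difference of 3.47. An exact permutation test gave p = 0.1, which 3 against 3 libraries cannot go below, and 0.3 after adjustment over the 3 ratios. Without MCA replicate 2 the log2 difference was 2.96, and without suture replicate 1 it was 2.79.

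The ratios of the other proteases to Timp1 overlapped between the groups. Mmp2 to Timp1 was 0.558, 0.881 and 0.427 in the MCA libraries and 0.474, 0.4996 and 0.554 in the suture libraries. The suture values were close together and the MCA values spread to both sides of them. The log2 difference was 0.23 (exact permutation p = 0.6) and turned to -0.06 without MCA replicate 2. Mmp14 to Timp1 was 0.348, 1.01 and 0.426 in the MCA libraries and 0.263, 0.4999 and 0.305 in the suture libraries. In both groups replicate 2 had the highest Mmp14 to Timp1 ratio, and suture replicate 2 lay above 2 of the 3 MCA libraries. The log2 difference was 0.63 (exact permutation p = 0.4) and 0.17 without MCA replicate 2. Without suture replicate 2 it was 0.91, and the groups did not overlap. With all libraries kept, a higher Mmp14 level with MCA was thus not matched by a ratio to Timp1 that separated the groups.

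**Figure D3:**
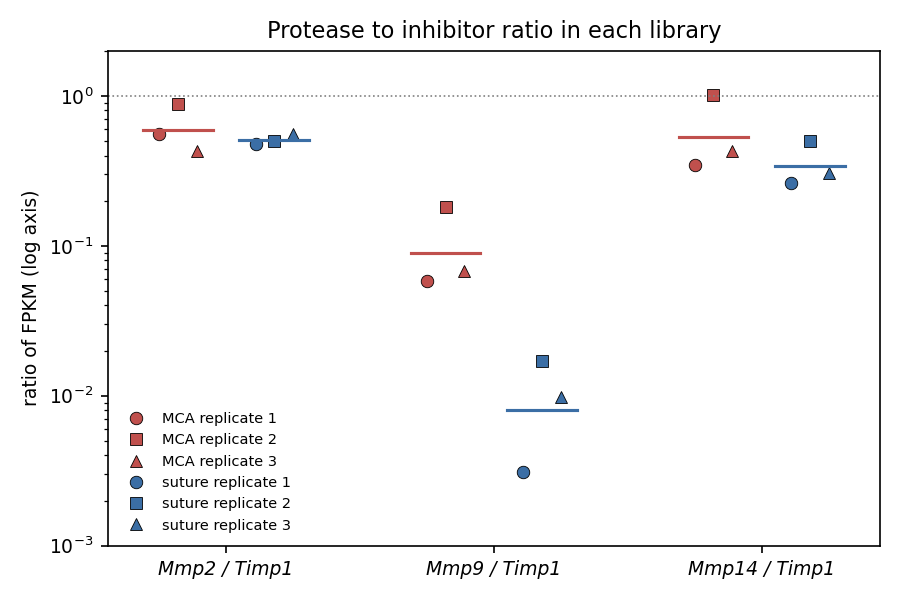
Ratio of each protease's FPKM to that of Timp1 (log axis) in each library, with MCA in red, suture in blue, a marker shape for each replicate number, a line at each group's geometric mean and a dotted line at a ratio of 1. The groups are apart for Mmp9 (0.0580 to 0.180 with MCA, 0.00310 to 0.0170 with suture) and overlap for Mmp2 and Mmp14, where MCA replicate 2 is the highest point.

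Summed over the 3 proteases, the level was 252, 302 and 154 FPKM in the MCA libraries and 122, 114 and 161 FPKM in the suture libraries. MCA replicate 3 lay within the range of the suture libraries. The mean was 236 ± 75.4 FPKM (SD, n = 3) for MCA against 132 ± 25.5 FPKM (SD, n = 3) with suture, 1.78 times apart (exact permutation p = 0.2 on log2 values). The log2 difference of the sum was 0.80, and 0.59 without MCA replicate 2. Set against Timp1, the protease sum was 0.965, 2.07 and 0.921 with MCA and 0.740, 1.02 and 0.869 with suture (exact permutation p = 0.3). It exceeded 1 in replicate 2 of either group, by far more with MCA than with suture. The log2 difference of this ratio was 0.50 with all libraries and 0.12 without MCA replicate 2. Without suture replicate 2 it was 0.61, and the groups did not overlap.

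Of the difference of 104 FPKM between the mean sums, Mmp14 made up 51.3 FPKM, Mmp2 36.4 and Mmp9 16.2. As a share of the sum, only Mmp9 had groups that did not overlap. It supplied 6.02%, 8.71% and 7.37% of the summed FPKM in the MCA libraries and 0.419%, 1.67% and 1.13% in the suture libraries. The means were 7.37% ± 1.35 (SD, n = 3) and 1.08% ± 0.629 (SD, n = 3), with no overlap (exact permutation p = 0.1). This share reuses the Mmp9 levels given above and was added after the values were seen. Mmp2 supplied 42.5% to 57.9% of the sum with MCA and 49.1% to 64.1% with suture, and Mmp14 supplied 36.1% to 48.8% and 35.1% to 49.2%. These ranges overlapped for both genes, although the mean Mmp2 share was 48.9% with MCA and 59.0% with suture (exact permutation p = 0.2).

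**Figure D4:**
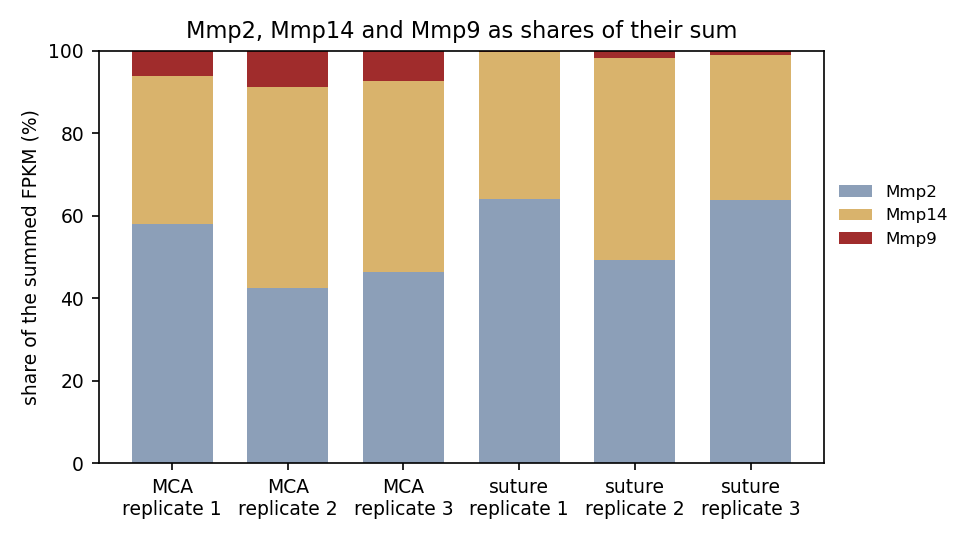
Share of the summed FPKM of Mmp2, Mmp14 and Mmp9 supplied by each gene, in percent, with a stacked bar for each library. Mmp9 takes 6.02% to 8.71% of the bar in the MCA libraries and 0.419% to 1.67% in the suture libraries.

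Ratios between the proteases set the difference in Mmp9 against those in Mmp2 and Mmp14, and both were higher with MCA. The Mmp9 to Mmp2 ratio was 0.104, 0.205 and 0.159 in the MCA libraries and 0.00654, 0.0341 and 0.0178 in the suture libraries. Its geometric mean was 9.49 times higher with MCA, a log2 difference of 3.25 that was 2.61 without suture replicate 1. The Mmp9 to Mmp14 ratio was 0.167, 0.179 and 0.159 in the MCA libraries and 0.0118, 0.0340 and 0.0323 in the suture libraries, 7.15 times apart. Both ratios separated the groups completely (exact permutation p = 0.1 each, the smallest possible, and 0.15 after adjustment over the 3 ratios between proteases). The Mmp14 to Mmp2 ratio did not: it ran from 0.624 to 1.15 with MCA and from 0.551 to 1.00 with suture (exact permutation p = 0.3). These ratios were added after the values were seen. Those with Mmp9 reuse its levels given above, so they are not findings separate from the Mmp9 difference.

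The 3 MCA libraries had nearly the same Mmp9 to Mmp14 ratio although their levels of both genes differed by more than 2-fold. The highest Mmp9 level with MCA was 2.32 times the lowest, and the highest Mmp14 level 2.07 times the lowest, with the libraries in the same order. The SD of the log2 ratio was 0.08 over the MCA libraries and 0.86 over the suture libraries, where suture replicate 1 was lowest in both genes but by more in Mmp9. Without suture replicate 1, whose Mmp9 value rests on 25 fragments, the SD of the other 2 suture libraries was 0.05, no wider than with MCA. With suture replicate 2 or 3 left out instead, it was 1.03 or 1.08, so the wide suture spread rests on suture replicate 1. The difference between these spreads was not tested.

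Across the 6 libraries, correlations were computed for all 6 pairs of genes on log2(FPKM + 1), with p-values adjusted over the 6. Mmp9 and Mmp14 were the most alike, with Pearson r = 0.94 (exact permutation p = 0.00556, adjusted p = 0.0333; Spearman's rho 0.94, exact permutation p = 0.0167, adjusted p = 0.1). Without MCA replicate 2 and suture replicate 1, the libraries farthest from the median of Mmp9, r was again 0.94. Both genes were higher in every MCA library than in every suture library, so this r and the group difference cannot be told apart, and 3 libraries are too few for a value within a group. Of all genes tested, 0.486% had at least as high an r with Mmp14 and 0.831% with Mmp9.

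No other pair passed the adjusted threshold. Mmp2 and Timp1 had r = 0.73 (exact permutation p = 0.0944, adjusted p = 0.283; rho 0.60, exact permutation p = 0.242, adjusted p = 0.483), the highest r of either gene with another of the 4. The value depended on single libraries: it was 0.96 without MCA replicate 2 (exact permutation p = 0.0333, adjusted p = 0.1), and -0.39 without MCA replicate 1 and suture replicate 2, the libraries farthest from the median of Mmp2. Mmp2 and Mmp14 had r = 0.67 (exact permutation p = 0.144, adjusted p = 0.283; rho 0.66, exact permutation p = 0.175, adjusted p = 0.483), which was 0.71 without the same pair of libraries and 0.58 without MCA replicate 2. Mmp2 and Mmp9 had r = 0.60 (exact permutation p = 0.189, adjusted p = 0.283; rho 0.49, exact permutation p = 0.356, adjusted p = 0.533), 0.44 without the 2 farthest libraries and 0.46 without MCA replicate 2. Timp1 was least like Mmp14, at r = 0.15 (exact permutation p = 0.758, adjusted p = 0.758; rho 0.26, exact permutation p = 0.658, adjusted p = 0.79), and had r = 0.29 with Mmp9 (exact permutation p = 0.586, adjusted p = 0.703; rho 0.029, exact permutation p = 1, adjusted p = 1). Without MCA replicate 2 these were 0.62 and 0.57, and without MCA replicate 2 and suture replicate 1 they were 0.79 and 0.67.

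The spread within a group was wider for these genes than for the median gene, except for Mmp14 with suture. The SD of log2(FPKM + 1) over the MCA libraries was 0.54 for Mmp2, 0.58 for Mmp9, 0.53 for Mmp14 and 0.44 for Timp1, against a median of 0.36 over all genes tested. Over the suture libraries it was 0.43, 0.53 and 0.38 for Mmp2, Mmp9 and Timp1, against a median of 0.33, and Mmp14 was below that median at 0.22. The added 1 narrows the spread of Mmp9 with suture, where its levels were low. On the FPKM scale its coefficient of variation was 55.5% with suture and 44.1% with MCA.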

How the data were processed

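RNA from 6 rat colonic anastomoses was sequenced on a DNBSEQ-T7 instrument from NEBNext Ultra libraries, and the authors deposited normalized FPKM values, per the labels' protocols. The submitters' processing notes name limma without its role. No aligner, counting program, strand setting, genome build or annotation is stated (not given in the sources used here), and 0 of the 21417 identifiers matched the 47357 genes of the reference table. Because FPKM values are not counts, log2(FPKM + 1) was tested. Genes averaging 1 FPKM or more were kept (13591, with 7826 removed) and fitted together with limma 3.58.1 in R 4.3.3 (group as the only term, trended empirical Bayes), with two-sided p-values adjusted by Benjamini-Hochberg over all of them and a threshold of 0.05. Ratios of FPKM, with no pseudocount, were compared by two-sided exact permutation over the 20 assignments (Python 3.11.15, scipy 1.17.1). Whole fragments were recovered from the full-precision values for all 21417 genes, within 1e-06 of a fragment. They are the smallest whole numbers that fit. The tests were checked on simulated data.

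Only the 4 chosen genes are named, whatever their values. They, the ratios to Timp1 and the alternatives were chosen with earlier results of these data known. The ratios between proteases, the protease sums, the spread of the Mmp9 to Mmp14 ratio and the test of the order of levels were added after seeing the values. A list of other metalloproteinases, inhibitors and related genes had been set for counting, but is not analysed here because no table pairs symbols with the identifiers. Alternatives were pseudocounts of 0.1 and 0.5, no filter or a minimum mean of 5 FPKM, 3 other scalings, array weights, the replicate number as a block, limma-voom on recovered fragments and leaving out each library. The labels call the replicates biological without naming animals, so p-values measure the spread between these libraries.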

Additional observations from a re-analysis of the deposited data

How the results depend on the processing

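In the gene-by-gene test 0 genes passed the adjusted threshold in 15 of 16 alternatives, leaving out each library included (0 to 0), and 35 passed with array weights, 34 of them higher with MCA. Those weights were estimated from the same libraries. They also brought Mmp9 past the threshold (log2 fold 2.67, limma adjusted p = 0.0190). All 4 genes stayed higher with MCA in all 16 alternatives, and Mmp2, Mmp14 and Timp1 stayed above the adjusted threshold in each. With 1 library left out, the log2 fold ranged from 2.61 to 3.18 for Mmp9, 0.63 to 1.15 for Mmp14, 0.30 to 0.83 for Mmp2 and 0.05 to 0.47 for Timp1. The other alternatives gave 2.67 to 3.76 for Mmp9, the highest from limma-voom, which uses no pseudocount of 1.

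The Mmp9 to Timp1 log2 difference ran from 2.79 to 4.01 with 1 library left out and fell to 2.63 with a pseudocount of 1. Fitted with limma over the 3 ratios, it was 3.47 with a limma adjusted p of 0.00235. That fit can pass where the exact test of 3 against 3 cannot. It also pools the spread over only 3 ratios that share Timp1. Of these, Mmp9 to Timp1 had the widest spread in each group (SD of log2 0.89 with MCA and 1.25 with suture), which pooling narrows, so this p-value is likely too small. The Mmp2 to Timp1 difference reversed to -0.058 without MCA replicate 2 (-0.058 to 0.46 over the libraries left out), and the Mmp14 to Timp1 difference ran from 0.17 to 0.94. The cause was not tested. The correlation of Mmp9 and Mmp14 was 0.963 without MCA replicate 2 but no longer passed (exact permutation adjusted p = 0.1), because 5 libraries allow fewer pairings.

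Same-numbered libraries deviated together for replicates 1 and 2 (correlations of 0.42 and 0.53) but not 3 (-0.0016), so the numbers were not taken as pairs. For differently numbered libraries the values ran from -0.47 (MCA replicate 2 with suture replicate 1) to 0.28 (MCA replicate 3 with suture replicate 1). Deviations were taken from group means of 3 libraries, so these correlations are tied together. With the replicate block, 0 genes passed, the log2 folds were as in the test without it (2.93 for Mmp9, limma adjusted p = 0.239; 0.92 for Mmp14, 0.52 for Mmp2 and 0.30 for Timp1), and the Mmp9 to Timp1 and Mmp14 to Timp1 ratios were each higher with MCA in 3 of 3 numbered pairs (exact sign-flip p = 0.25, the smallest possible) and Mmp2 to Timp1 in 2 of 3 (exact sign-flip p = 0.75). Depth limits Mmp9 most in suture replicate 1, with 25 fragments.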
